A study of Mus musculus with 24 samples.

Results

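*Brpf3* and 8 genes whose proteins work with it in histone acetyltransferase complexes were followed in the hypothalamus of mice that carry CAST or B6 alleles on Chr 17. *Brpf3* was selected on its position in the mapped Chr 17 interval and on its normalized counts, which differed between the genotypes in these same libraries, and the partners *Brpf1*, *Brd1*, *Kat6a*, *Kat6b*, *Kat7*, *Ing4*, *Ing5* and *Meaf6* were listed for their place in the complexes. These 9 genes were taken from 13998 genes in the deposited table. Of the 9, 6 were found under the listed symbol, and *Kat6a*, *Kat6b* and *Kat7* were found under their older symbols *Myst3*, *Myst4* and *Myst2*, which RefSeq gives as synonyms.

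Hypothalamus RNA came from 24 male F2 mice of an intercross between the subcongenic strain B6.CAST-17.1 and C57BL/6J, with 1 SAGE-Seq library per mouse. The 12 *cast/cast* mice were homozygous for CAST alleles across the subcongenic segment, the 12 *b6/b6* mice were homozygous for B6 alleles there, and both genotypes were *b6/b6* everywhere else. The mice were 10 to 16 weeks old at testing, all had chosen between a carbohydrate/protein (C/P) and a fat/protein diet for 10 d, and all were returned to those diets for about 48 h and then fasted before the tissue was taken. The *cast/cast* mice were taken from the high tail of C/P intake and the *b6/b6* mice from the low tail, so genotype and intake cannot be told apart between the groups.

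SAGE-Seq counts a short tag near the 3′ end of each transcript, and the values below are normalized counts, that is tag hits divided by the size factor of the library. The libraries held 7754202 to 13082873 tag hits, and the floor of 3 hits equalled 2.36 to 3.81 normalized counts. A library was called far from the others where its median correlation with the other 23 was below 0.9. This held for *b6/b6* mice 6 and 12 (0.893 and 0.862) and *cast/cast* mouse 6 (0.884), against 0.912 to 0.956 in the other 21 libraries, so results are given with and without these 3. In *b6/b6* mice 6 and 12 the summed normalized counts of 5 endothelial markers were 811 and 910, where the other *b6/b6* mice had 171 to 329.9 and *cast/cast* mice had 224 to 452. The sums of 6 microglia markers (1840 and 1731.5) and of 5 measured ependymal and tanycyte markers (1012 and 424) lay below those of the other *b6/b6* mice (2367 to 4140.1 and 1192 to 3958). Of the other lists, 13 measured hypothalamic neuropeptides summed to 6643 to 36135 in *cast/cast* and 12303 to 21202 in the other *b6/b6* mice, and were 17390 and 30075 in *b6/b6* mice 6 and 12. No measured marker was at 0 in all mice. Of all markers only *Tcf7l2*, 1 of 5 from the thalamus, passed the genotype call defined below (log2 fold change -0.84, limma *P* = 0.0071), and the sums of those 5 overlapped (659.5 to 1428 among *cast/cast* and 632 to 1841 among the other *b6/b6* mice).

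BRPF1, BRD1 (also called BRPF2) and BRPF3 are related scaffold proteins that read modified histone tails through bromodomain, PHD finger and PWWP modules. Each brings together a MYST-family acetyltransferase (KAT6A, KAT6B or KAT7), an ING-family reader of methylated histone H3 (ING4 or ING5) and the small subunit MEAF6, and the assembled complex acetylates lysines of histone H3. BRPF1 is best known as the scaffold of KAT6A and KAT6B, while BRD1 and BRPF3 are best known as scaffolds of KAT7, and KAT6A, KAT6B and BRPF1 have known roles in brain development.

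The tags below show where a reference transcript would be tagged. They were read from its 3′-most CATG, the site at which the tagging enzyme cuts. CATG is in capitals and the bases after it are in lower case. All 5 lie in the 3′UTR, within the last exon, on the GRCm38 build. None of the 27-base tags occurred in the annotated transcripts of another gene. They are shown for the 3 scaffolds, which share no tag with each other, and for the reader *Ing5* and the subunit *Meaf6*. They come from GENCODE M21 transcripts cut at the RefSeq gene end, and the tags that the study counted were not analysed here. Relative to the GENCODE transcript end, the RefSeq end lay at -1160 bases for *Brpf3* and -137 bases for *Brpf1*. A CATG in the part cut off was not looked for, so the site counted may differ.
Brpf3: CATGgatggcctgaggagggtcctgcc
Brd1: CATGtttgtaatatctccatagaaact
Brpf1: CATGccaggggaattcatacctgccta
Ing5: CATGgattatggatatattgtttaata
Meaf6: CATGtggtgtcgatattcataactgaa
The *Brpf3* tag lies on the plus strand at chr17:28838651-28838677, in exon 13 of 13. The *Brd1* tag is on the minus strand at chr15:88687060-88687086, the *Brpf1* tag on the plus strand at chr6:113324479-113324505, the *Ing5* tag on the plus strand at chr1:93822056-93822082 and the *Meaf6* tag on the plus strand at chr4:125109842-125109868. In GENCODE M21 *Brpf3* itself spans chr17:28801090-28839949 on the plus strand, and 2 annotated minus-strand noncoding genes overlap it. *Brpf1*, *Ing4* and *Ing5* each overlap 1 gene on the opposite strand, and *Ing4* and *Kat6a* each overlap 1 on their own strand. Whether tags were counted by strand is not given in the sources used here, so hits on these overlapping genes may be included.

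*Brpf3* was low in every *cast/cast* mouse and high in every *b6/b6* mouse. Fewer cells of a type and less RNA per cell cannot be told apart in such whole-tissue samples. *Brpf3* also lies in the CAST segment, and its tags were aligned to B6-derived references. Whether CAST base differences in the tag or its CATG lowered the *cast/cast* counts was not tested. Normalized counts of *Brpf3* were 17.8 (lowest), 58.7 (median) and 77.8 (highest) in *cast/cast* mice, and 599.5, 708 and 919 in *b6/b6* mice. The genotypes did not overlap, and the lowest *b6/b6* value was 7.70 times the highest *cast/cast* value. Means were 49.8 ± 21.8 (SD, n = 12) in *cast/cast* and 733 ± 109 (SD, n = 12) in *b6/b6* mice, a ratio of 14.7 in favour of *b6/b6*. On the log2(normalized count + 1) scale the difference, *cast/cast* minus *b6/b6*, was -3.99 (SE 0.22, 95% interval -4.44 to -3.54). No test is attached to it, because this contrast chose the gene, and the interval takes no account of that choice. Over all 13998 genes, 0.336% had genotypes that did not overlap. The share among the 412 tested genes of the subcongenic segment was not determined here. The study reported larger fold changes for some other genes of the mapped interval, among them *Phf1* and *Pla2g7*, and smaller ones for others. A genotype difference there is therefore not particular to *Brpf3*.

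Even the lowest *Brpf3* value was well above the floor of 3 hits, with 14 to 75 tag hits per *cast/cast* library and 530 to 953 per *b6/b6* library. The *cast/cast* values were the more spread in relative terms, with a coefficient of variation of 43.8% against 14.9%. Of the 12 *cast/cast* mice, 5 had between 17.8 and 42.0 and 7 had between 55.2 and 77.8. In *b6/b6* mice 6 and 12, *Brpf3* stood at 714 and 701.5, close to the *b6/b6* median, and without the 3 libraries far from the others the difference was -3.90. Among mice with study numbers up to 121 (7 *cast/cast*, 5 *b6/b6*) it was -4.11, and among those with study numbers from 197 on (5 *cast/cast*, 7 *b6/b6*) it was -3.87.

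**Figure D1:**
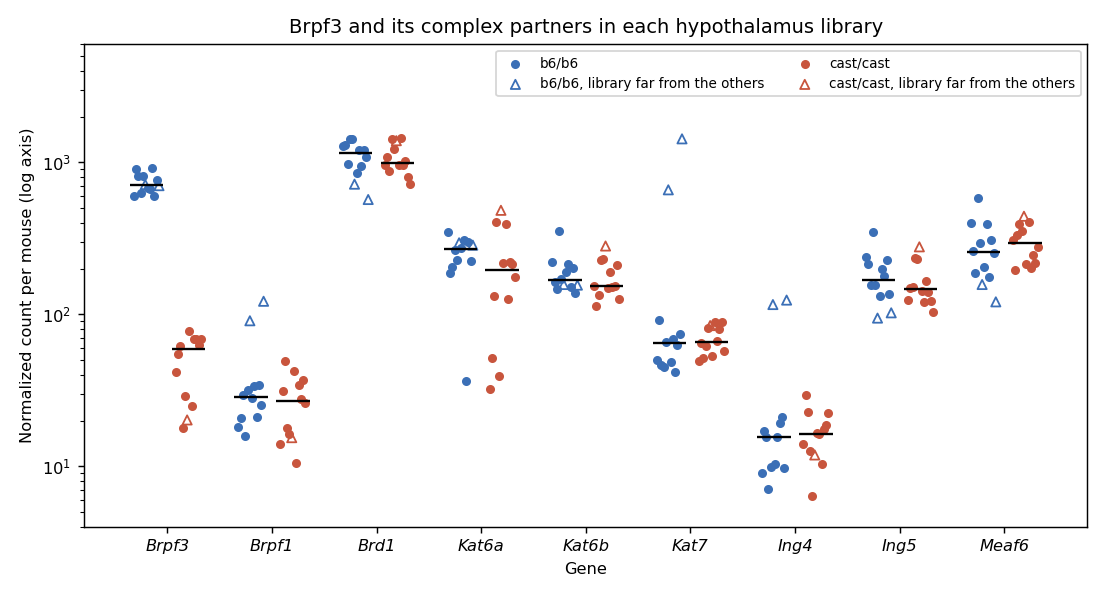
Normalized count (log axis) of each of the 9 genes in every mouse, with *b6/b6* in blue and *cast/cast* in red, black lines at the medians and open triangles for the 3 libraries far from the others. *Brpf3* separates the genotypes, with *cast/cast* mice between 17.8 and 77.8 and *b6/b6* mice between 599.5 and 919, while the genotypes overlap in all 8 partners.

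The nearest tested genes on either side of *Brpf3* overlapped between the genotypes. *Mapk14*, a stress-activated protein kinase whose gene ends 52.7 kb to the left of the RefSeq start of *Brpf3*, had 118 (lowest), 173 (median) and 440.3 (highest) normalized counts in *cast/cast* and 161, 303 and 609 in *b6/b6* mice (log2 fold change -0.49, SE 0.24, limma *P* = 0.0497, adjusted *P* = 0.612). *Pnpla1*, of a lipase-like family and 19.6 kb to the right of its RefSeq end, had 4.31, 10.4 and 22.4 in *cast/cast* and 1.91, 10.7 and 33.7 in *b6/b6* mice (log2 fold change -0.052, SE 0.35, limma *P* = 0.883). Neither gene passed the call rule used throughout, an unadjusted *P* of at most 0.01 with mean counts that differ 1.5-fold or more the same way.

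None of the 8 partners was called different between the genotypes by limma, and none had an unadjusted *P* under 0.05. Over all 13998 genes, 1.49% were called (0.471% higher and 1.01% lower in *cast/cast*) and 8.13% had an unadjusted *P* under 0.05. The median log2 fold change of the 8 partners was -0.19, against -0.018 over all genes, and their values ran from -0.54 to 0.18. DESeq2, which called 2.82% of all genes, called none of the 8, while the edgeR quasi-likelihood test called *Kat7*, as described below. With the 3 libraries far from the others left out, limma again called none, and 1 partner, *Ing5*, had a *P* under 0.05 (log2 fold change -0.36, *P* = 0.049), against 1.08% and 6.38% of all genes. All 8 partners overlapped between the genotypes.

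**Figure D2:**
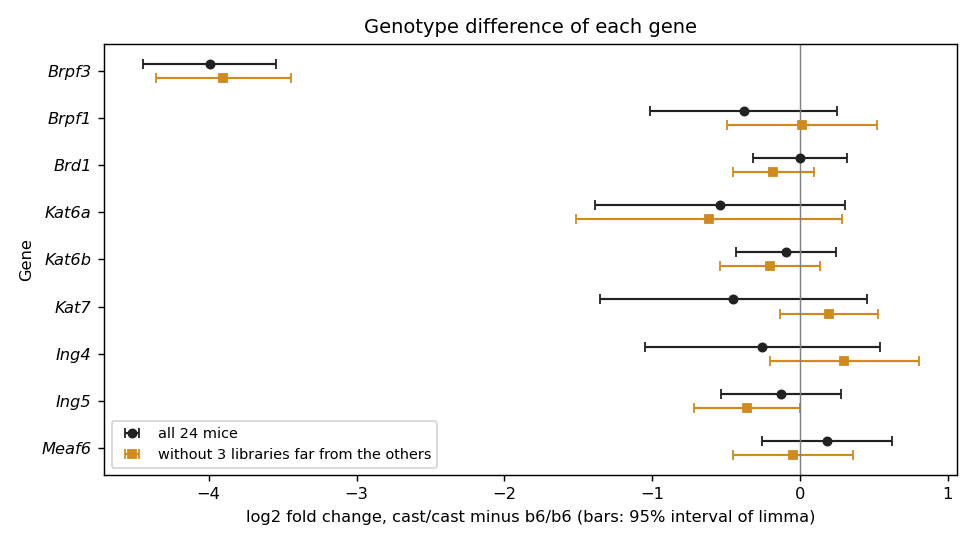
Log2 fold change of each gene, *cast/cast* minus *b6/b6*, with its 95% interval from limma, for all 24 mice (black circles) and without the 3 libraries far from the others (orange squares). *Brpf3* lies at -3.99 and -3.90, all 8 partners lie between -0.62 and 0.30, and the intervals of *Kat7* and *Ing4* are narrower without those libraries. The intervals of *Brpf3* take no account of its choice on this contrast.

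The other scaffolds did not pass the test. *Brd1*, the most abundant of the 9 genes in either genotype, had 721 (lowest), 987 (median) and 1450.2 (highest) normalized counts in *cast/cast* and 569, 1145 and 1422 in *b6/b6* mice. The means were 1069 ± 246 and 1082 ± 274 (SD, n = 12 each), and the log2 fold change was -0.0025 (SE 0.16, 95% interval -0.32 to 0.32, limma *P* = 0.987). *Brpf1*, one of the scarcest, had 10.5, 27.0 and 49.4 in *cast/cast* and 15.7, 28.8 and 122 in *b6/b6* mice. Its log2 fold change was -0.38 (SE 0.31, 95% interval -1.01 to 0.25, limma *P* = 0.224), and its highest values, 90.6 and 122, were those of *b6/b6* mice 6 and 12. Without the 3 libraries far from the others it was 0.012 (*P* = 0.961).

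The 3 scaffold genes were also summed, since a tag is counted per transcript whatever its length. Whether the tags of different genes are captured and mapped alike was not tested. The sums, shares and ranks below are therefore of tag counts. The sum was 816 (lowest), 1096 (median) and 1485 (highest) in *cast/cast* and 1392, 1879 and 2267 in *b6/b6* mice, with means of 1146 ± 220 and 1854 ± 264 (SD, n = 12 each). The ranges met only at the edge, from 1392 to 1485. Without *Brpf3* the sums were 1096 ± 238 and 1121 ± 250.3, so the gap between the genotypes lay in *Brpf3*, the gene chosen for it. *Brpf3* made up 1.22 to 8.37% of the scaffold counts in *cast/cast* (median 5.46%) and 30.3 to 50.4% in *b6/b6* mice (median 40.7%). The median share of *Brd1* was 92.0% among *cast/cast* mice and 58.2% among *b6/b6* mice, and that of *Brpf1* was 2.58% and 1.51%.

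**Figure D3:**
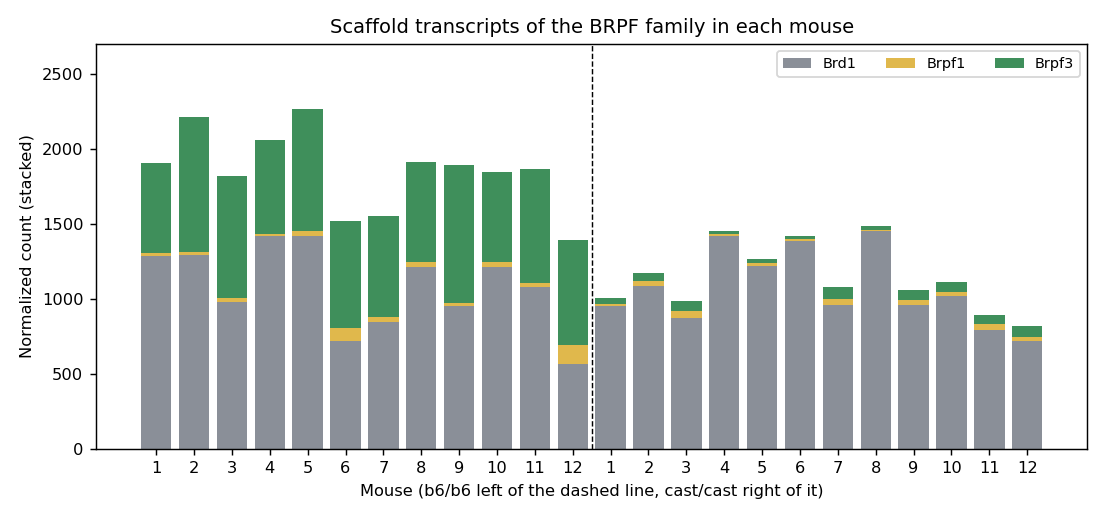
Stacked normalized counts of *Brd1* (grey), *Brpf1* (yellow) and *Brpf3* (green) in each mouse, *b6/b6* on the left and *cast/cast* on the right. The green part is 30.3 to 50.4% of each *b6/b6* bar and 1.22 to 8.37% of each *cast/cast* bar, and the yellow part is widest in *b6/b6* mice 6 and 12.

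The place of *Brpf3* among the 9 genes therefore differed. In *b6/b6* mice it was second by median, below *Brd1* in 11 of 12 mice and above *Kat6a*, the next, in 12 of 12. In *cast/cast* mice it was seventh, below *Kat7* in 8 of 12 mice and above *Brpf1* in 11 of 12, so that *Kat7* and *Brpf3* were not clearly apart there. *Brd1* led and *Ing4* was last by median in both genotypes. Some neighbours in the order changed places between mice, such as *Kat6a* and *Meaf6* in *b6/b6* mice (*Kat6a* above in 4 of 12 despite the higher median) and *Kat6b* and *Ing5* (*Kat6b* above in 7 of 12).

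None of the acetyltransferases passed the test with limma. *Kat6b* had 113 (lowest), 153 (median) and 281 (highest) in *cast/cast* and 138, 168 and 351 in *b6/b6* mice (log2 fold change -0.094, SE 0.16, 95% interval -0.43 to 0.24, limma *P* = 0.570). *Kat6a* had 32.3, 195 and 483 in *cast/cast* and 36.7, 269 and 349.5 in *b6/b6* mice (log2 fold change -0.54, SE 0.41, 95% interval -1.39 to 0.30, limma *P* = 0.199). Its values fell into separate ranges, which were noticed after the values were seen. In 4 mice (3 *cast/cast*, 1 *b6/b6*) it lay between 32.3 and 51.6, and in the other 20 it was 126 or more, a gap of 2.43 times between the nearest values. None of these 4 libraries was among those far from the others.

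*Kat7*, the acetyltransferase best known as a partner of BRPF3, had 49.5 (lowest), 66.0 (median) and 88.8 (highest) in *cast/cast* and 41.5, 64.6 and 1426 in *b6/b6* mice. The medians were close, but *b6/b6* mice 6 and 12 held 659 and 1426, against 41.5 to 92.1 in the other 22 mice, 10.3 and 22.2 times the median of those 22. The limma log2 fold change was -0.45 (SE 0.44, 95% interval -1.36 to 0.45, *P* = 0.315). The edgeR quasi-likelihood test, which works on the tag hits, gave -1.68 and called *Kat7* (*P* = 0.00483, adjusted *P* = 0.244), in a fit that called 2.79% of all genes. Without the 3 libraries far from the others the limma difference turned to 0.19 (SE 0.16, *P* = 0.239), with means of 67.6 ± 14.7 (SD, n = 11) in *cast/cast* and 59.5 ± 16.1 (SD, n = 10) in *b6/b6* mice.

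The histone readers and the small subunit also overlapped between the genotypes. *Ing4* was the scarcest, with 6.37 (lowest), 16.4 (median) and 29.4 (highest) in *cast/cast* and 7.08, 15.6 and 124 in *b6/b6* mice (log2 fold change -0.26, SE 0.39, 95% interval -1.05 to 0.54, limma *P* = 0.514). Its counts rested on 7 to 124 tag hits, and the 2 highest values, 116 and 124, were again those of *b6/b6* mice 6 and 12. *Ing5* had 103, 146 and 278 in *cast/cast* and 94.4, 167 and 349 in *b6/b6* mice (log2 fold change -0.13, SE 0.20, 95% interval -0.53 to 0.28, limma *P* = 0.525). *Meaf6* had 197, 294 and 442 in *cast/cast* and 121, 258 and 585 in *b6/b6* mice (log2 fold change 0.18, SE 0.21, 95% interval -0.26 to 0.62, limma *P* = 0.401). With the 3 libraries far from the others left out, *Ing4* turned to 0.30 (*P* = 0.232) and *Meaf6* to -0.048 (*P* = 0.811).

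In *b6/b6* mice 6 and 12, 3 partners lay above and 3 below all the other mice. *Brpf1*, *Kat7* and *Ing4* were higher in both than in each of the other 22 mice, with *Ing4* 7.43 and 7.95 times and *Brpf1* 3.35 and 4.5 times the median of the others. *Brd1* (718 and 569, against 721 to 1450.2), *Ing5* (94.4 and 102.2, against 102.9 to 349) and *Meaf6* (157.0 and 121, against 176 to 585) were lower in both than in all others. *Brpf3*, *Kat6a* and *Kat6b* stayed within the range of the other mice. Over all 13998 genes, 18.6% were above and 11.8% below all other mice in both libraries, and the endothelial, microglia and ependymal marker sums given above moved there too. Their part in these values was not tested.

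The labels give each mouse a study number, and the genotype difference of *Ing5* was not alike in the lower and higher numbers. In the higher set the *cast/cast* mice were numbered 197 to 270 and the *b6/b6* mice 251 to 364. Genotype and study number therefore cannot be fully told apart in that set. *Ing5* averaged 177 ± 56.5 (SD, n = 7) in *cast/cast* and 129 ± 32.9 (SD, n = 5) in *b6/b6* mice numbered up to 121, and 144 ± 49.98 (SD, n = 5) and 219.9 ± 65.2 (SD, n = 7) in those numbered from 197 on. The interaction of genotype and study number set was -1.06 on the log2 scale (SE 0.35, limma *P* = 0.00507, adjusted *P* = 0.337), at a threshold of 0.01 that 2.81% of all genes passed. *Brd1* (-0.74, *P* = 0.0117) and *Meaf6* (-0.92, *P* = 0.0219) had interactions of the same sign that did not pass it, and *Brpf3* had 0.24 (*P* = 0.607). *b6/b6* mice 6 and 12 and *cast/cast* mouse 6 all fall in the lower set. Without them the *Ing5* interaction was -0.71 (*P* = 0.0509) and no longer passed, as 0.822% of all genes then did.

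**Figure D4:**
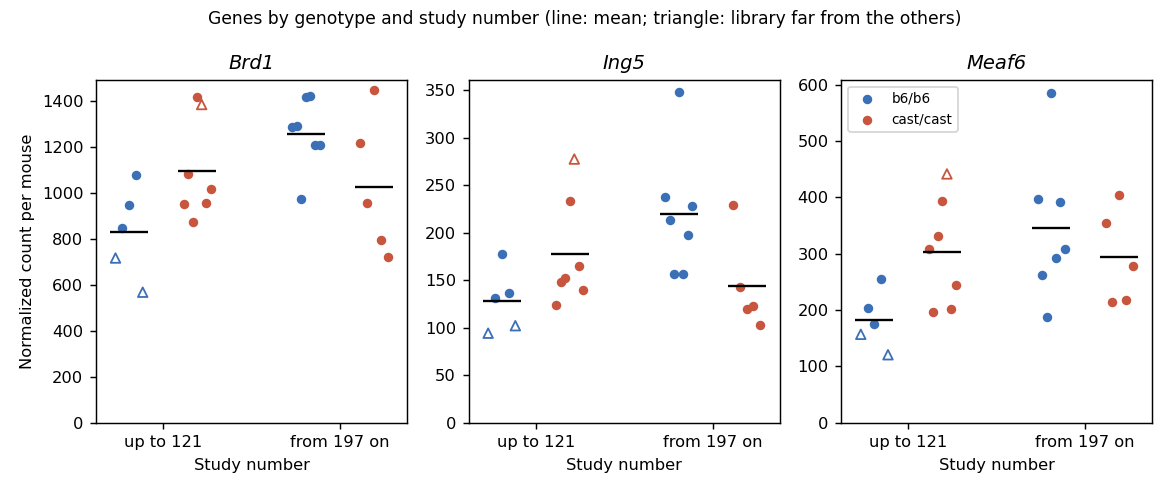
Normalized counts of *Brd1*, *Ing5* and *Meaf6* by study number set and genotype (*b6/b6* blue, *cast/cast* red), with black lines at the means and open triangles for libraries far from the others. For *Ing5* the *cast/cast* mean is above the *b6/b6* mean in the lower set (177 and 129) and below it in the higher set (144 and 219.9).

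A slope on study number within genotype was called at *P* of at most 0.01 for *Meaf6* alone of the 9 genes. It rose by 0.25 on the log2 scale per 100 study numbers (SE 0.09, limma *P* = 0.00745, adjusted *P* = 0.155), while 6.27% of all genes passed. The slope was 0.19 (*P* = 0.0436) without the 3 libraries far from the others, and 1.69% of all genes passed. *Brpf3* had a slope of 0.039 (SE 0.10, *P* = 0.698).

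C/P intake varied within each genotype, which allowed a slope of each gene on intake that the choice of *Brpf3* did not use. It ran from 27.4 to 41 kcal in *b6/b6* and from 77.8 to 106.6 kcal in *cast/cast* mice. These ranges do not meet, as the mice came from the tails of intake, so each slope holds only for its own range. *Brpf3* had a slope of 0.33 on the log2 scale per 10 kcal in *b6/b6* mice (SE 0.42, limma *P* = 0.436) and -0.11 in *cast/cast* mice (SE 0.18, limma *P* = 0.552). No slope of the 9 genes passed a *P* of 0.01 or of 0.05 in *cast/cast* mice, where 0.5% of all genes passed 0.01 and 3% passed 0.05. Among *b6/b6* mice 4 slopes passed 0.05, against 23.7% of all genes, namely *Kat7*, *Ing4* (slope -1.62, *P* = 0.0207), *Brpf1* (-1.20, *P* = 0.0386) and *Brd1* (0.60, *P* = 0.0387). *Kat7* had a slope of -2.56 in *b6/b6* mice (SE 0.69, limma *P* = 0.00106, adjusted *P* = 0.0323), a threshold that 11.2% of all genes passed, and the difference of slopes, *cast/cast* minus *b6/b6*, was 2.70 (SE 0.75, *P* = 0.0014, adjusted *P* = 0.0468), where 9.93% passed. *b6/b6* mouse 12, with the highest *Kat7*, had the lowest intake of all mice (27.4 kcal). Without the 3 libraries far from the others the *b6/b6* slope of *Kat7* was 0.42 (*P* = 0.323), where 1.8% of all genes passed, and the difference was -0.27 (*P* = 0.536). In that smaller set the genes with a *P* under 0.05 were *Kat6b* (-0.98, *P* = 0.0131) and *Meaf6* (-1.07, *P* = 0.0405) in *b6/b6* mice, against 7.92% of all genes, and *Ing4* (-0.41, *P* = 0.0212) and *Kat6b* (0.22, *P* = 0.0466) in *cast/cast* mice, against 5.52%. There *Kat6b* had a slope difference of 1.2 (SE 0.38, *P* = 0.00437, adjusted *P* = 0.400), where 2.28% of all genes passed, against 0.48 (*P* = 0.146) in all mice.

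*Brpf3* varied within genotype along with many other genes. After the mean of each genotype was subtracted, the 5 genes most like it over the 24 mice were *Acat2* (Pearson's *r* = 0.897), *Ndfip1* (0.894), *Tmem120b* (0.894), *2410016O06Rik* (0.888) and *Tmem35* (0.888). *Acat2*, an acetyl-CoA acetyltransferase of lipid metabolism, also lies on Chr 17. In *cast/cast* mice alone these 5 had *r* from 0.933 to 0.965, and in *b6/b6* mice alone from 0.344 to 0.653. Of the 5 genes most like *Brpf3* in *b6/b6* mice alone, 0 were among those 5. These are descriptions, and the points share library composition. In *cast/cast* mice the *r* of *Brpf3* with the summed normalized counts of the library was -0.907 and 57.9% of all genes had an *r* of 0.5 or more in size, against -0.0761 and 18.4% in *b6/b6* mice.

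Among the partners, *Brpf1* went with *Brpf3* in *cast/cast* mice (*r* = 0.804, n = 12) and *Brd1* (-0.861), *Meaf6* (-0.850), *Kat6b* (-0.762) and *Ing5* (-0.652) went against it. In *b6/b6* mice *Brpf1* (-0.0680) and *Brd1* (-0.0703) showed little relation, while *Kat6a* (-0.719), *Kat6b* (-0.664) and *Meaf6* (-0.461) went against *Brpf3*. *Kat6b* was thus the partner with a negative *r* over 0.6 in size in both genotypes. That cutoff was not set beforehand, and the share of all genes past it in both genotypes was not determined. For *Kat7* the *r* was -0.362 (*cast/cast*) and -0.0407 (*b6/b6*). Over all 24 mice, with genotype means subtracted, *Brpf3* had an *r* of 0.464 with *Brpf1*, -0.534 with *Brd1* and -0.551 with *Meaf6*. It was -0.660 with *Kat6b*, -0.456 with *Ing5* and -0.338 with *Kat6a*. Without the 3 libraries far from the others these were, in that order, 0.657, -0.670, -0.628, -0.605, -0.448 and -0.223. Within each genotype the *r* without them was not determined.

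Other genes of histone acetylation were described from lists of the JADE scaffolds, the NuA4/TIP60 complex, the KAT8 complexes, other lysine acetyltransferases, histone deacetylases, acetyl-lysine readers, other ING readers and the replication licensing genes, where KAT7 is known to act. Of 97 listed genes, 90 were measured. None was called by limma, which called 1.49% of all genes. Of the 90, 8 (8.89%) had an unadjusted *P* under 0.05, against 8.13% of all genes, and the median log2 fold change was -0.11. The edgeR quasi-likelihood test called 2 (2.22%, against 2.79% of all genes), *Mcm6* and *Yeats2*. DESeq2 called 4 (4.44%, against 2.82%), which were those 2 with *Mrgbp* and *Kansl3*, and each had its lower mean in *cast/cast* mice. Median normalized counts were 18.5 (*cast/cast*) and 24.1 (*b6/b6*) for *Yeats2*, and 71.2 and 88.5 for *Kansl3*. Without the 3 libraries far from the others limma called none of the 90, against 1.08% of all genes. edgeR and DESeq2 were not run without them. Among study numbers up to 121, limma called 3 (3.33%, against 3.27% of all genes), with *Baz2b* and *Sgf29* higher and *Dpf2* lower in *cast/cast* mice, and among those from 197 on it called none, against 1.1%. *Yeats2*, *Kansl3*, *Baz2b* and *Dpf2* were named after their values were seen.

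The lowest *P* of all lists was that of *Msl2*, a subunit of a KAT8 complex that acetylates histone H4. It had 45.2 (lowest), 97.2 (median) and 121 (highest) in *cast/cast* and 98.7, 119 and 151 in *b6/b6* mice (log2 fold change -0.48, SE 0.15, limma *P* = 0.00348, adjusted *P* = 0.311). Its ratio of 1.36 fell short of the 1.5 the call requires, and its difference without the 3 libraries far from the others was -0.49 (*P* = 0.00469). *Brwd1*, a bromodomain protein, had 318 to 532 in *cast/cast* and 429.5 to 701 in *b6/b6* mice (log2 fold change -0.32, *P* = 0.00954, ratio 1.24). Without the 3 libraries far from the others its limma difference was -0.24 (*P* = 0.0388).

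The gene with the lowest *P* in each other list was not called by limma in all mice. *Mrgbp* of the NuA4/TIP60 complex had a log2 fold change of -1.25 (*P* = 0.0174) with medians of 3.37 (*cast/cast*) and 6.23 (*b6/b6*) normalized counts, near the floor of 3 hits. *Mcm6*, a helicase subunit of the replication licensing complex, had -0.97 (*P* = 0.0328), and *Sirt1*, a NAD-dependent deacetylase, had -0.57 (*P* = 0.0407). All 3 were above the other 22 mice in *b6/b6* mice 6 and 12, and without the 3 libraries far from the others their differences were -0.60, -0.50 and -0.24. *Sgf29* of the acetyltransferase list had 0.39 (*P* = 0.0477) with those libraries and 0.15 (*P* = 0.334) without them. *Jade1*, an alternative scaffold of KAT7, had -0.31 (*P* = 0.117), and *Ing3*, the reader of the NuA4/TIP60 complex, had 0.25 (*P* = 0.223). Without the 3 libraries far from the others, limma gave -0.16 (*P* = 0.389) for *Jade1* and -0.042 (*P* = 0.752) for *Ing3*. In *b6/b6* mice 6 and 12 *Jade1* lay above all other mice, and *Sgf29* and *Ing3* lay below them.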

How the data were processed

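The signal values that the authors deposited are tag hits per gene of 24 mouse libraries (SOLiD SAGE kit, 27-base tags, SOLiD sequencing), aligned to RefSeq mRNA and GRCm38 with a modified SOLiD SAGE Analysis Software v1.10 and scaled by each library's DESeq size factor. All libraries, *cast/cast* included, were aligned to B6-derived references, and the effect of CAST base differences within tags on the counts was not tested. The deposited columns with the authors' own comparisons (mean, fold change, log2 fold change, p-value and adjusted p-value) were not used. The table held 19529 rows for 13998 genes. In every library 100% of values were whole multiples of 1 hit (tolerance 0.01 hits). Of 276 library pairs the smallest chi-square value per degree of freedom was 14.7, so each library was counted as its own. The lowest mean of any gene was 6.03, so scarcer genes were not analysed here. Floors cover counting error only.

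Genotypes were compared over all genes by limma 3.58.1 (lmFit, eBayes with trend) on log2(normalized count + 1), a scale that understates changes of low genes, with Benjamini-Hochberg adjustment over all 13998 genes. Genes were called at an unadjusted *P* up to 0.01 with means that differed 1.5-fold or more. Slopes on intake and study number and the interaction were fitted in the same way, called at *P* of at most 0.01. edgeR and DESeq2 on recovered hits, pseudocounts of 0.5 and 5, a minimum mean of 20 or none, rescaling to the same total, study number as a covariate and each study number set alone were alternatives. Leaving out 3 or 2 libraries far from the others was added after seeing the data. Scripts were tested on simulated data. Reference tags were taken from GENCODE M21 transcripts, cut at the RefSeq end. The members and lists were chosen with earlier results of these data known. Genes named were the members, each list's called or lowest-*P* gene, the nearest tested neighbours of *Brpf3* and the 5 genes most like it.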

Additional observations from a re-analysis of the deposited data

Results flagged for a closer look

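The genotype difference of *Ing5*, a histone reader subunit, differed between mice with study numbers up to 121 and those from 197 on, with an interaction of -1.06 on the log2 scale (SE 0.35, limma *P* = 0.00507, adjusted *P* = 0.337). It did not pass the adjustment over all genes, of which 2.81% had a *P* of at most 0.01. It was -0.71 (*P* = 0.0509) without the 3 libraries far from the others, all of which have study numbers up to 121. From 197 on, the genotypes overlap little in study number. The slope of *Kat7* on C/P intake differed between the genotypes by 2.70 on the log2 scale per 10 kcal, *cast/cast* minus *b6/b6* (SE 0.75, limma *P* = 0.0014, adjusted *P* = 0.0468), and 9.93% of all genes had a *P* of at most 0.01. With study number as a covariate it was 2.40 (adjusted *P* = 0.114), and without the 3 libraries far from the others it turned to -0.27 (*P* = 0.536).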

How the results depend on the processing

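*Brpf3* had a difference between -3.87 and -4.11 under all 12 alternatives run. Of the partners only *Kat6a* kept its direction under all of them, and none of the values that turned passed the call rule. Without the 3 libraries far from the others, *Brpf1* was 0.012, *Kat7* 0.19, *Ing4* 0.30 and *Meaf6* -0.048. Without only *b6/b6* mice 6 and 12, *Kat7* was 0.22 and *Ing4* 0.27. Among study numbers up to 121, *Brd1* was 0.41, *Kat6b* 0.077 and *Ing5* 0.44. Among those from 197 on, *Kat7* was 0.26, *Ing4* 0.20 and *Meaf6* -0.20. With study number as a covariate *Brd1* was 0.088. Some partner values that kept their direction had an unadjusted *P* under 0.05 without being called. They included *Ing5* at -0.62 from 197 on (limma *P* = 0.0197) and *Meaf6* at 0.71 up to 121 (limma *P* = 0.0166). By DESeq2 *Ing4* was -0.91 (*P* = 0.041). The share of all genes under 0.05 in these fits was not determined here. In *b6/b6* mice the intake slope of *Kat7* was 0.42, and its difference from the *cast/cast* slope was -0.27, without the 3 libraries.

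Over all genes edgeR called 391 and DESeq2 395 on the recovered hits, against 208 by limma. By edgeR 1 partner (*Kat7*) was called, against 0 by limma. Counted with *Brpf3*, which was chosen on this contrast and to which no test is attached, 2 of the 9 genes met the rule by edgeR and 1 by limma. In the chromatin lists edgeR called 2 genes, DESeq2 called 4 and the covariate fit called 1 (*Yeats2*), against 0, and 3 were called among study numbers up to 121. Without the 3 libraries, the counts of genes with a called intake slope in *b6/b6* mice, a called study number slope and a called interaction were each 0, against 1, and the cause was not tested. Of the 5 genes most like *Brpf3*, 0 remained in *b6/b6* mice alone. No paired analysis was possible because the labels give no replicate numbers shared by the genotypes. In all mice the 95% intervals of *Kat6a*, *Kat7*, *Ing4* and *Brpf1* reach a log2 difference of 1. Without the 3 libraries only that of *Kat6a* does (-1.52 to 0.29), those of the others being -0.14 to 0.53, -0.20 to 0.80 and -0.49 to 0.52.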
